A study of Mus musculus with 8 samples.

Results

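The genes of the major histocompatibility complex (MHC) and of antigen presentation were measured in NMuMG-NT2197 cells that carried 1 of 2 forms of ShcA, an adaptor that links phosphorylated receptors to downstream signalling. The line derives from NMuMG, an epithelial line from mouse mammary gland. Members were all non-control probes of the array whose gene name begins with H2-, the prefix of mouse MHC genes, together with the probes of B2m, Tap1, Tap2, Tapbp, Tapbpl, Cd74, Ciita, Nlrc5, Erap1, Calr and Canx. They came to 67 probes with 52 gene names, out of 39429 probes on the array. In 4 samples the cells carried a ShcA R175Q cDNA, in which glutamine replaces arginine at residue 175 of the domain (PTB) with which ShcA binds phosphorylated tyrosines. In the other 4 they carried a wild-type ShcA cDNA, and both cDNAs were in a pMSCV/hygro vector, in which a retroviral promoter drives the insert. The labels do not say whether a group is 1 clone, or whether its 4 samples came from separate cultures, so p-values cover the spread among these 8 samples alone, which may be technical. Besides cultured cells, the labels name microdissected material as the RNA source, a conflict that was not settled.

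MHC class I molecules carry short peptides from proteins of the cell to its surface, where CD8 T cells and natural killer cells read them. The proteasome cuts the peptides, the TAP transporter moves them into the endoplasmic reticulum, ERAP1 trims them, and a loading complex of tapasin, calreticulin and other chaperones fits them onto a heavy chain paired with beta-2-microglobulin. Nearly all nucleated cells, epithelium included, make class I, and interferons raise it, in large part through the transcriptional activator NLRC5. Class II molecules present peptides from endosomes to CD4 T cells, need CIITA for their transcription, and are made mainly by dendritic cells, B cells, macrophages and thymic epithelium.

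A feature of the family that bears on every value below is how alike its members are. Class I genes arose by repeated duplication on mouse chromosome 17, and a 60-base probe for 1 of them can share long runs of letters with another. The following pairs of probes are shown because the runs that they share, in capitals, are among the longest between tested H2 probes of different genes. All sequences are the array's own, 5′ to 3′, with positions in mm9.
H2-K1 probe A_55_P2049647: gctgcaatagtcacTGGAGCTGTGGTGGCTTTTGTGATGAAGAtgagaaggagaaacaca
H2-T23 probe A_51_P237754: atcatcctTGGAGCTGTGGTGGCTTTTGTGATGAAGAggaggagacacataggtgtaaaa
H2-Q10 probe A_55_P1995092: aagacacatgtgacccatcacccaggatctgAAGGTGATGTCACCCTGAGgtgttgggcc
H2-Q2 probe A_51_P425048: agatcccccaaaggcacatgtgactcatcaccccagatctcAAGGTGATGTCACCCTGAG
The H2-K1 probe lies on the minus strand at chr17:34133984-34134043 and shared an unbroken run of 29 bases with the H2-T23 probe, which spans chr17:36167338-36167574 on the same strand. The H2-Q10 probe, at chr17:35610036-35610095 on the plus strand, shared 19 bases with the H2-Q2 probe at chr17:35460007-35460066. Among the H2 probes that were tested, 6 pairs for different genes shared a run of at least 15 bases. Of the 14 class I type probes later called higher, 9 shared such a run with another gene's probe, and of the 4 that were tested and not called, 0 did. Transcripts of such genes may bind each other's probes, so a value is given for a probe, and the part of its neighbours in it was not tested. Probes were compared with each other and not with transcripts. A probe without a shared run may still match another gene's transcript, so these counts do not say which probes are specific. Whether a probe lies in a coding exon or a UTR was not determined.

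Every array paired a Cy3-labelled sample with the same Cy5-labelled reference RNA, never with dyes exchanged. A value is the log2 ratio of sample over reference after background correction from the array's negative control spots. Precision is limited by having 4 arrays in a group. The scanner software put 53.7% to 63.0% of an array's spots well above background in the sample channel, and none was saturated. Probes were tested where 4 or more of the 8 arrays had the Cy3 signal well above background. Of the 67 member probes, 35 passed, 23 were well above background on no array, and 9 on 1 to 3 arrays. The test was limma's moderated test, two-sided, adjusted by the Benjamini-Hochberg method across the 22849 probes that passed, and a probe was called where the adjusted p was under 0.05. Values after ± are standard errors (SE, n = 4 arrays per group) unless named otherwise. A probe's ratio depends on how much of its transcript the reference holds, so levels are compared between groups and not between probes.

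Members that were detected were mostly higher in R175Q cells. Of the 35 tested probes, 19 were called higher, 0 lower and 16 were not called, so 54.3% of them were called, against 18.6% of all probes tested (8.95% higher and 9.68% lower). At an unadjusted p under 0.05, 2 members (H2-Eb1 and Ciita) were lower. The R175Q and wild-type arrays did not overlap for 20 members, always with R175Q above, and for 23.3% of all probes tested. The median difference, R175Q less wild-type, was 0.32 over the members and -0.02 over all probes tested. Being bulk RNA, these values cannot tell a change in the number of expressing cells from a change in RNA per cell. The calls fell on H2 probes of class I type, a few class I helpers and 1 Nlrc5 probe. H2-DMa was the class II side's single called probe.

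The classical class I heavy chains, H2-K and H2-D, are the main presenters of peptide to CD8 T cells. The H2-D1 probe, at chr17:35403886-35403945, read -1.52, -1.57, -1.43 and -1.39 in R175Q replicates 1 to 4, against -2.17, -2.18, -1.99 and -2.30 in wild-type replicates 1 to 4. All R175Q arrays lay above all wild-type arrays, by 0.68 ± 0.07 on average, or 1.61-fold (adjusted p = 0.000189, limma). The H2-K1 probe A_51_P198434, at chr17:34133055-34133114, read -1.89, -1.81, -1.96 and -1.72 in R175Q cells, against -2.22, -2.29, -2.31 and -2.20 in wild-type cells. The other H2-K1 probe, the one printed above, read -2.13, -2.18, -2.17 and -1.92 in R175Q cells, against -2.59, -2.45, -2.49 and -2.50 in wild-type cells. Neither H2-K1 probe had overlapping groups, and both gave a difference of 0.41 (1.33-fold, adjusted p = 0.0021 and 0.00288, limma). All 3 classical probes were thus higher in R175Q cells, and H2-D1 by more than H2-K1, a difference between probes that was not tested.

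Non-classical class I genes of the Q, T and M regions encode heavy chains with narrower or other roles, and they hold 33 of the member probes. Of these, 11 were tested and 8 were higher in R175Q cells, with a median difference of 0.49 over the 11, while 16 were well above background on no array. The Q region carried most of the calls. H2-Q7 belongs to the genes of Qa-2, a surface protein held by a lipid anchor, and its probe read -1.98, -1.98, -1.94 and -1.91 in R175Q cells, against -2.63, -2.68, -2.48 and -2.64 in wild-type cells. Its difference of 0.65 ± 0.06 had the lowest adjusted p of any member (5.7e-05, limma, 1.57-fold), and its replicates were tight in both groups. H2-Q6, another Qa-2 gene, read -1.79, -1.78, -1.70 and -1.63 in R175Q cells, against -2.37, -2.46, -2.12 and -2.30 in wild-type cells, a difference of 0.59 ± 0.08 (adjusted p = 0.000673, limma).

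Both probes for H2-Q2 rose as well. Probe A_51_P425048 read -2.09, -2.08, -1.94 and -1.88 in R175Q cells, against -2.73, -2.75, -2.45 and -2.65 in wild-type cells, and probe A_51_P219789 read -2.33, -2.34, -2.17 and -2.22 in R175Q cells, against -2.87, -2.84, -2.65 and -2.84 in wild-type cells. Their differences were 0.65 ± 0.08 and 0.53 ± 0.07 (adjusted p = 0.000477 and 0.000594, limma), and on both the third wild-type array stood highest of its group. H2-Q10, known as a secreted class I molecule of the liver, read -1.67, -1.68, -1.58 and -1.50 in R175Q cells, against -2.18, -2.26, -1.89 and -2.08 in wild-type cells, a difference of 0.49 ± 0.08 (adjusted p = 0.00265, limma). A further H2-Q10 probe was well above background on no array, so the call rests on the probe that shares letters with H2-Q2. H2-Q5 read -2.21, -2.30, -2.07 and -2.10 in R175Q cells, against -2.82, -2.70, -2.44 and -2.39 in wild-type cells. It differed by 0.42 ± 0.10 (adjusted p = 0.0175, limma), and its call was lost without R175Q replicate 3 (adjusted p = 0.0505).

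Outside the Q region, H2-T23 and H2-M2 were called. H2-T23 encodes Qa-1, the ligand of the inhibitory receptor NKG2A on natural killer cells, and its probe read -1.93, -1.96, -1.82 and -1.72 in R175Q cells, against -2.54, -2.50, -2.20 and -2.49 in wild-type cells. The difference was 0.58 ± 0.09, or 1.49-fold (adjusted p = 0.00153, limma), with no overlap although the third wild-type array was well above the others of its group. H2-M2 read -1.66, -1.67, -1.64 and -1.59 in R175Q cells, against -2.10, -2.07, -1.95 and -2.04 in wild-type cells, a difference of 0.40 ± 0.06 (adjusted p = 0.000885, limma), while a further H2-M2 probe was well above background on no array. In contrast, H2-M3, which presents formylated bacterial peptides, differed by 0.08 ± 0.12, H2-T10 by 0.08 ± 0.12 and H2-T9 by -0.10 ± 0.07, none of them called (adjusted p = 0.698, 0.709 and 0.385, limma). These 3 probes stood well above background on all 8 arrays. Those never well above background included the probes for H2-Q1, H2-Q8, H2-T3, H2-M1 and H2-M9.

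The H2- prefix also takes in array names that were not sorted into these classes. H2-K2, a gene of class I type next to H2-K1, is matched to a RefSeq transcript annotated as non-coding. It has probes A_51_P502456 and A_55_P2051334 whose positions overlap, at chr17:34111941-34112000 and chr17:34111920-34111979. The first read -2.52, -2.54, -2.43 and -2.43 in R175Q cells, against -3.17, -3.12, -2.87 and -3.12 in wild-type cells, and the second -2.59, -2.46, -2.49 and -2.38 in R175Q cells, against -3.12, -3.05, -2.77 and -3.10 in wild-type cells. They differed by 0.59 ± 0.07 and 0.53 ± 0.09 (adjusted p = 0.000427 and 0.00203, limma), and count as 1 stretch of transcript rather than as independent evidence. The first of them shared a run of 28 bases with the H2-Q7 probe. H2-Bl, which the array's annotation names without a position, read -2.81, -2.84, -2.65 and -2.72 in R175Q cells, against -3.38, -3.31, -2.93 and -3.32 in wild-type cells. It differed by 0.48 ± 0.10 (adjusted p = 0.00829, limma). The probe named H2-Gs10, whose current symbol is H2-Q4, differed by 0.00 ± 0.12. By that symbol it is a Q gene, but the counts of non-classical probes follow the array's names and leave it out. H2-Ke6 and H2-Ke2 lie in the complex without being MHC chains, and Ke2's current symbol is Pfdn6, a subunit of the chaperone prefoldin. They differed by 0.02 ± 0.06 and -0.03 ± 0.07, and all 3 had groups that overlapped.

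Put together, 14 H2 probes of class I type were higher in R175Q cells, by 0.40 to 0.68 (1.32-fold to 1.61-fold, median 0.53), with adjusted p from 5.7e-05 to 0.0175. Arrays of the same slide were hybridised together, and 3 of the 4 slides held both groups. Slide 2 held R175Q replicate 2 and wild-type replicate 1. Slide 3 held R175Q replicate 3 and wild-type replicates 2 and 3, and slide 4 held replicate 4 of each group. Within those slides the 14 differences ran from 0.29 to 0.91. Each had to be positive, because none of the 14 probes had overlapping groups, so the signs add no support. H2-D1 differed by 0.60, 0.66 and 0.91 within slides 2, 3 and 4, H2-Q7 by 0.66, 0.64 and 0.72, and the H2-K1 probe printed above by 0.41, 0.30 and 0.58. Among the helpers, Tapbp differed by 0.49, 0.41 and 0.52 within those slides, and B2m by 0.25, 0.44 and 0.52. Members that were not called often changed sign between slides, as H2-T10 did at 0.02, -0.09 and 0.37 and H2-DMb1 at -0.25, -0.18 and 0.28. Over all 35 tested members, 22 were positive within all 3 slides, as the 20 without overlap had to be. The share over all probes tested was not taken.

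The light chain and the loading machinery of class I moved less evenly. Of 8 probes, all well above background on all 8 arrays, 3 were higher in R175Q cells, with a median difference of 0.25 over the 8. Tapbp encodes tapasin, which bridges the TAP transporter and the heavy chain, and its probe at chr17:34065963-34066022 read -1.35, -1.33, -1.40 and -1.26 in R175Q cells, against -1.83, -1.83, -1.78 and -1.78 in wild-type cells. It differed by 0.47 ± 0.05, or 1.38-fold (adjusted p = 0.00023, limma), with a wide gap between the groups. Its relative Tapbpl, an editor of peptide cargo, read -1.79, -1.76, -1.63 and -1.79 in R175Q cells, against -1.96, -2.02, -1.87 and -2.07 in wild-type cells. It differed by 0.24 ± 0.06 (adjusted p = 0.0303, limma). Canx, the chaperone calnexin that folds new heavy chains, read -0.85, -0.82, -1.0 and -0.85 in R175Q cells, against -1.11, -1.01, -1.27 and -1.16 in wild-type cells, a difference of 0.25 ± 0.07 (adjusted p = 0.0308, limma). Those last calls sit near the threshold. Leaving out R175Q replicate 1 or 2 or wild-type replicate 1 or 4 lost both of them. Canx was also lost without R175Q replicate 4, and Tapbpl without R175Q replicate 3 or wild-type replicate 2, with adjusted p up to 0.0908.

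B2m, the light chain that every class I molecule needs, was not called. It read 0.24, 0.44, 0.61 and 0.84 in R175Q cells, against 0.18, 0.09, 0.27 and 0.33 in wild-type cells, a difference of 0.32 ± 0.12 (adjusted p = 0.0942, limma). R175Q replicate 1 lay inside the wild-type range and the other R175Q arrays above it. Without that array the difference was 0.41 (adjusted p = 0.0274, limma), past the threshold. With slide as a fixed block in the fit the difference was 0.405 (adjusted p = 0.0192, limma), also past it. Slide 1 held R175Q replicate 1 alone, so the slide block also takes that array out of the comparison of groups. These fits thus set aside the same array and are not separate support for a difference in B2m.

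The TAP transporter subunits were not called. Tap1 read -4.02, -4.04, -4.02 and -3.87 in R175Q cells, against -4.15, -4.05, -4.26 and -4.20 in wild-type cells, and Tap2 read -5.19, -5.21, -5.18 and -5.03 in R175Q cells, against -5.30, -5.18, -5.19 and -5.29 in wild-type cells. The Tap1 arrays did not overlap but were separated by very little, and the Tap2 arrays did overlap. Their differences were 0.18 ± 0.07 and 0.09 ± 0.06 (adjusted p = 0.0956 and 0.377, limma). In the deposited table of log2 ratios, fitted the same way, Tap1 differed by 0.33 (adjusted p = 0.00491), past the threshold, and 0.44 with the scanner software's own ratio (adjusted p = 0.018). Erap1, the trimming peptidase, read 1.00, 0.78, 0.72 and 0.72 in R175Q cells, against 0.80, 0.47, 0.25 and 0.63 in wild-type cells, a difference of 0.27 ± 0.11 (adjusted p = 0.137, limma), and of 0.175 without wild-type replicate 3, not called either way. Calr, which encodes calreticulin, read 0.51, 0.43, 0.11 and 0.34 in R175Q cells, against 0.45, 0.46, -0.19 and 0.40 in wild-type cells, a difference of 0.07 ± 0.15 (adjusted p = 0.801, limma). Both had overlapping groups, and for Calr the third array was the lowest in each group.

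Among the regulators, the probes for Nlrc5 disagreed. Probe A_55_P2016034, at chr8:97051105-97051164, read -1.86, -1.82, -1.57 and -1.42 in R175Q cells, against -2.38, -2.52, -2.45 and -2.07 in wild-type cells. All R175Q arrays were above all wild-type arrays, by 0.69 ± 0.12, or 1.61-fold (adjusted p = 0.00327, limma), and it was the largest difference of any member. Probe A_66_P113043, whose position spans chr8:97030478-97030624, differed by -0.05 ± 0.10 (adjusted p = 0.772, limma) with overlapping groups, but it stood well above background on only 2 of 4 R175Q arrays, against 4 of 4 wild-type arrays. Ciita, the class II activator, read 0.55, 0.80, 0.85 and 0.88 in R175Q cells, against 1.05, 1.08, 0.85 and 0.90 in wild-type cells, a difference of -0.20 ± 0.09 that was not called (adjusted p = 0.148, limma).

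Class II chains were mostly at background. Of the 6 probes, 4 were well above background on no array, among them that of H2-Aa, the alpha chain of the A molecule. H2-Ab1, its beta chain, has a probe that was well above background on 2 R175Q arrays and 1 wild-type array, and a probe that was so on none. The tested class II chain was H2-Eb1, which read -2.43, -2.37, -2.31 and -2.54 in R175Q cells, against -2.16, -2.22, -2.34 and -2.30 in wild-type cells. Its difference of -0.16 ± 0.07 was not called (adjusted p = 0.145, limma), and the groups overlapped. In the loading group, Cd74, the invariant chain, read -5.74, -5.79, -5.59 and -5.65 in R175Q cells, against -5.75, -5.76, -5.54 and -5.81 in wild-type cells, a difference of 0.02 ± 0.08 (adjusted p = 0.874, limma). The groups covered the same range.

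H2-DMa, a chain of the DM exchange factor that swaps the invariant chain's fragment for peptide, differed from its companions. Its probe read -2.89, -2.86, -2.91 and -2.74 in R175Q cells, against -3.26, -3.30, -3.08 and -3.22 in wild-type cells, with no overlap. The difference was 0.36 ± 0.07, or 1.29-fold (adjusted p = 0.00413, limma). H2-DMb1, which encodes the partner chain, differed by -0.07 ± 0.09 (adjusted p = 0.662, limma) and was well above background on 1 R175Q array and 3 wild-type arrays. The probes of H2-DMb2, H2-Oa and H2-Ob, chains of the same family, were not tested, being well above background on 1 array at most.

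Several differences depended on how background was taken. When the normexp model was fitted to all spots in place of the negative controls, its Cy3 background came out between -0.369 and -689.8 units of intensity in R175Q arrays and between -100.9 and -543 in wild-type arrays, whereas the measured medians of those control spots were 13.7 to 22.7 in R175Q arrays and 13.1 to 17.1 in wild-type arrays. With that setting 11 members were called higher, all of them among the 19. The lost calls included 4 class I type probes, those of H2-M2 (0.239, adjusted p = 0.241), H2-Q5 (0.365, adjusted p = 0.124), H2-Q10 (0.355, adjusted p = 0.116) and H2-Bl (0.37, adjusted p = 0.141), as well as Canx and Tapbpl. The Nlrc5 difference of 0.69 became -0.06 and that of H2-DMa became -0.15, with adjusted p of 0.922 and 0.807. Tap1 and Tap2 became -0.57 and -0.39, neither called. With that background and slide as a block, 0 members and 1 of all probes were called by limma at an adjusted p under 0.05, while 14 members were higher and 0 lower at an unadjusted p under 0.05. With no background correction all 19 calls were kept, as they were in the authors' deposited table.

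Promoters of class I genes carry a well-known upstream enhancer, with a site for NF-kappaB proteins beside one for interferon regulatory factors. The promoter table (RefSeq, GRCm38.p6) covers 250 bases before and 50 after each gene's start, and 46 of the 52 member gene names matched RefSeq and 35 genes had a promoter there. The following stretches of 50 bases from 4 called genes are shown because they hold both kinds of letters, in capitals: GGGGATTCC, a kappaB sequence, and TTTCACTTC, the reverse complement of the interferon response letters GAANNGAAA.
H2-D1: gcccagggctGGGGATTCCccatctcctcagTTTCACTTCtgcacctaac
H2-K1: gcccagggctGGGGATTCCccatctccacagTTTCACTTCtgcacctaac
H2-Q6: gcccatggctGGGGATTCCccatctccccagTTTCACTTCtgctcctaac
H2-Q7: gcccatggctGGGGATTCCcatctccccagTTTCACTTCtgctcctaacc
They lie at chr17:35262913-35262962 (plus strand), chr17:34000419-34000468 (minus strand), chr17:35424667-35424716 (plus strand) and chr17:35439012-35439061 (plus strand), in that order, and the kappaB letters begin at -171, -125, -173 and -133 from the start base. Both strands were searched for every motif, and in these stretches the motifs do not overlap. GGGGATTCC occurred in 0.25% of the 32851 promoters and, among the members, in these 4 genes alone, which are 4 of 10 called genes with a promoter and 0 of 10 tested genes that were not called. GAANNGAAA occurred in 7.52% of promoters and in 7 member genes, 5 of the 10 called and 2 of the 10 not called (H2-M3 and H2-Q4). CCAAT, a common promoter element, occurred in 37.4% of promoters and in 30 of the 35 member promoters. A longer interferon response form, GAAANTGAA, which has another spacing, was in 2.21% of promoters and among members in B2m and Erap1. The B2m stretch, at chr2:122147538-122147587 on the plus strand, is shown because it holds that form, in capitals. Of kappaB sequences only GGGGATTCC was searched, so other kappaB forms, in B2m or elsewhere, are not marked.
B2m: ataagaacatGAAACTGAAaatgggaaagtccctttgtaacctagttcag
These letters describe the genes and were not tested as sites of binding, and the heavy chain genes are duplicates whose promoters share their origin. Several of the tested genes not called, among them B2m, Calr, Erap1, Tap1 and H2-Eb1, are not class I heavy chains. The split between called and not called genes thus also follows the class of gene.

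Other genes of the pathway were read from a list of 44, each by its brightest probe, of which 42 were tested. Of these, 7 were higher in R175Q cells, 2 were lower and 33 were not called, so 21.4% of the list was called, near the 18.6% of all probes tested. The genes below are therefore given one by one and say nothing about the list as a whole. Psme1 and Psme2, the subunits of the PA28 activator of the proteasome, differed by 0.62 ± 0.06 and 0.65 ± 0.05 (adjusted p = 5.59e-05 and 2.84e-05, limma), while the immunoproteasome subunits Psmb8, Psmb9 and Psmb10 differed by -0.06, 0.06 and 0.10 and were not called. Psme1 ranged from -1.44 to -1.27 in R175Q cells, against -2.00 to -1.94 in wild-type cells. Psme2 ranged from -1.82 to -1.73 in R175Q cells, against -2.46 to -2.37 in wild-type cells, so neither gene's groups overlapped. Irf1, a transcription factor that acts on class I promoters, differed by 0.43 ± 0.06 (adjusted p = 0.000591, limma), and Fcgrt, a class I relative that carries immunoglobulin G, by 0.61 ± 0.09 (adjusted p = 0.000861, limma). The other rises were those of Irf9, Ctsb and Tpp2, which were named after their values were seen, at 0.71, 0.62 and 0.25.

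The falls in that list were those of Cd1d1 and Jak2. Cd1d1 encodes a class I relative outside the MHC that presents lipids to natural killer T cells, and it ranged from -1.16 to -1.02 in R175Q cells, against -0.15 to 0.07 in wild-type cells. Its difference of -1.05 ± 0.06 (adjusted p = 5.87e-06, limma) was opposite in sign to those of the called class I chains. Jak2, a kinase of the interferon gamma receptor, differed by -0.48 ± 0.07 (adjusted p = 0.00122, limma), and the receptor chains Ifngr1 and Ifngr2 differed by -0.22 and -0.06 without being called.

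Markers of other cell types were read on the same arrays, since the labels describe cultured cells but also call the RNA source microdissected material, a conflict that could not be settled. The markers' part in the class I differences was not tested. Counts called are read beside the 8.95% higher and 9.68% lower among all probes tested, and each list is short. Summed signals are of Cy3 after background correction and quantile normalization between arrays. The correction adds an offset of 50 to every probe, so a sum is not marker signal alone. Of 7 fibroblast markers 6 were tested and 4 were higher in R175Q cells, with a summed Cy3 signal of 2383 to 2686 in R175Q arrays, against 1443 to 1619 in wild-type arrays, and Lum was never well above background. Of 10 epithelial markers 8 were tested, 0 were higher and 3 lower, with a summed signal of 306268 to 346600 in R175Q arrays, against 376382 to 433318 in wild-type arrays, and Cldn3 never well above background. Those lower were Krt7, Krt19 and Krt8, at -1.89, -0.41 and -0.22. Cdh1, which encodes E-cadherin, was well above background on all 8 arrays and was not called. Of 14 macrophage markers 11 were tested, and 1 was higher (Fcer1g, 0.30) and 1 lower (Mrc1, -0.59). The list's summed signal was 44400 to 52801 in R175Q arrays, against 43269 to 53181 in wild-type arrays. Lyz1, C1qa and C1qc were never well above background. How much of any list's sum single markers carry was not examined.

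Markers of dendritic, T, natural killer and endothelial cells were mostly dim. The added offset makes up a large part of their sums and narrows the relative gap between groups. With 3 or 4 tested in each list, their counts are also read beside 8.95% higher and 9.68% lower among all probes. Of 8 dendritic cell markers 4 were tested and 2 were higher, with a summed signal of 1024 to 1153 in R175Q arrays, against 873 to 961 in wild-type arrays, and Itgax, Clec9a and Cd209a were never well above background. Of 9 T and natural killer cell markers 3 were tested and 0 called (0 also at an unadjusted p under 0.05, limma), with sums of 824 to 906 in R175Q arrays, against 880 to 1018 in wild-type arrays, and Cd3d and Ncr1 never well above background. Of 6 endothelial markers 3 were tested and 1, Vwf, was higher, with sums of 725 to 775 in R175Q arrays, against 630 to 698 in wild-type arrays, and Cdh5, Tek and Emcn never well above background.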

How the data were processed

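RNA of 4 R175Q and 4 wild-type samples was hybridised to Agilent two-colour arrays. Linear amplification was done in 2 rounds from 1 to 2.5 ng of RNA, per the labels. The labels name the Cy5 reference as mouse in 1 field and human in another, which was not settled. Spot intensity, local background intensity, flags of 0 or 1 and a log10 ratio were written by Agilent Feature Extraction 9.5.3.1, per the file headers. The authors' deposited table was taken to be in log2, sample over reference, from its r of 0.902 to 0.941 with the scanner's ratio, with column medians of 0.0526 to 0.0617. Its scaling and centring are not stated.

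From the intensities, background was corrected by normexp with the 153 negative control spots (offset 50), followed by loess within arrays, in limma 3.58.1 (statmod 1.5.0, R 4.3.3). Control spots were left out, spots of a probe averaged, and 122 probes with flagged values dropped. Probes of a gene were kept apart. Members and lists were chosen with earlier results of these data known. Per-array values are given for called members up to the 14 with the lowest p and for the brightest probes of the main genes, and up to 6 genes of the pathway list with the lowest p were named. Gene names are those of the array, and current symbols come from RefSeq by accession. Replicate numbers and slides served as alternative blocks, and the procedure was tested on simulated data. The alternatives also covered background, normalization, filter, brightest probe, the deposited table and each array left out; scan day as a block was added after seeing the data. Some items of the pathway and marker lists are not reported here.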

Additional observations from a re-analysis of the deposited data

Results flagged for a closer look

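In 7 groups of 4 arrays a member probe had 1 array far from the rest by Dixon's criterion, which chance alone meets in about 1 in 20 groups, and 70 groups were examined. Tap1 in R175Q replicate 4 read -3.87, with the nearest array at -4.02, and Tap2 in the same array read -5.03, with the nearest at -5.18. The third wild-type array stood highest for H2-Q2 (probe A_51_P219789, -2.65), H2-T23 (-2.20), H2-K2 (probe A_51_P502456, -2.87) and H2-Bl (-2.93), and lowest for Calr (-0.193, with the nearest at 0.398). For H2-Q2, H2-T23, H2-K2 and H2-Bl that array was the wild-type array closest to the R175Q arrays, and their calls were kept with and without it.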

How the results depend on the processing

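The number of arrays, and signal over background for the dim members, limit what can be seen. The counts of 2045 probes higher and 2212 lower became 484 and 432 with normexp fitted to all spots and 0 and 1 with that background and slide as a block, where members called higher fell to 11 and 0, and the median of class I loading to 0.148 and 0.136. The median of the names outside the classes was 0.184 with normexp on all spots, 0.0249 with the brightest probe per gene and 0.297 with slide as a block. With no filter, 1 member was called lower (H2-M5, -0.212, above background on 2 arrays), 2 further dim ones higher, and the non-classical median was 0.0543. Median centring called 2172 higher and 1525 lower. Leaving out each array in turn gave 1448 to 2521 higher and 1456 to 2695 lower, with 1456 without wild-type replicate 1, 17 to 19 members higher, and medians of 0.441 to 0.562 for non-classical class I, 0.193 to 0.253 for loading and 0.230 to 0.319 for the other names. Replicate numbers did not pair the arrays (same-number correlations 0.30, 0.0137, 0.552 and 0.122, and R175Q replicates 2 and 4 correlated best with another number). With the replicate block 2473 probes were higher and 2619 lower, 19 of 19 member calls were kept, and B2m (adjusted p = 0.0279) and Erap1 (0.0346) joined them.

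Calls kept of the 19 were 18 or 19 under no background correction, the scanner's ratio, median centring, scaling, the deposited table, both filters, a trend and robust fit, and slide as a fixed or random block. They were 15 with Cy3 alone, 16 with the brightest probe, which drops 3 of them, and 17 with scan day as a block. Differences that changed sign were mostly those of members near 0. With normexp on all spots these were Tap1 -0.566, Tap2 -0.387, Cd74 -0.477, H2-M3 -0.0352, H2-DMa -0.153, H2-Gs10 -0.00271, Nlrc5 -0.0554, H2-Ke6 -0.0131, H2-T10 -0.018 and Ciita 0.123. With the slide block added they were Tap1 -0.649, Tap2 -0.395, Cd74 -0.479, Calr -0.0613, H2-M3 -0.0396, H2-DMa -0.173, Nlrc5 -0.078, H2-Ke6 -0.0628, H2-T10 -0.0449 and Ciita 0.201. With Cy3 alone H2-M3 was -0.00877, H2-Gs10 -0.113 and H2-T10 -0.0267. H2-Gs10 was -0.0293 in the deposited table, -0.0218 with median centring and -0.0226 with the scanner's ratio. The second Nlrc5 probe was 0.0122 with no background correction and 0.0246 with the scanner's ratio. Cd74 was -0.0647 with scaling. Calr and H2-Ke6 were -0.00124 and -0.0055 with scan day as a block, and -0.0305 and -0.0108 with slide. Within slide 2, Cd74 was -0.0337, Calr -0.019, H2-Gs10 -0.0598 and Erap1 -0.0122. Within slide 3, H2-Ke2 was 0.0743, Calr -0.0201, H2-Gs10 -0.129, H2-T10 -0.0927 and the second Nlrc5 probe 0.162. Within slide 4, H2-DMb1 was 0.276, Calr -0.0559, H2-M3 -0.0198 and H2-Ke6 -0.0936. With 1 array left out, H2-Gs10 ranged from -0.0892 to 0.074, Cd74 from -0.0113 to 0.0827, H2-Ke2 from -0.0766 to 0.00754, H2-Ke6 from -0.00177 to 0.0447, H2-T10 from -0.0531 to 0.154, the second Nlrc5 probe from -0.139 to 0.0316, H2-M3 from -0.0156 to 0.16 and Calr from -0.0861 to 0.149. The causes were not tested.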
